A study of Homo sapiens with 9 samples.

Results

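The 7 genes described here are IFIT1, IFIT2, IFIT3 and IFIT5 of the IFIT family and IFITM1, IFITM2 and IFITM3 of the IFITM family. They were chosen by gene name from the 58735 genes of the deposited count matrix, with no reference to their values in the rule, and all 7 passed the filter on low counts in each comparison. RNA-seq was performed in A549, an established cell line from human lung adenocarcinoma, after transfection with jetPRIME and a plasmid. The control group (PC3 in the labels), the group given a LINC00996 plasmid (L996) and the group given an AP001189.3 plasmid (RP11) each had 3 libraries. LINC00996 and AP001189.3 are long non-coding RNAs, and all 9 libraries share the cell line and the transfection. Each group received a single plasmid of its own. An effect of the RNA therefore cannot be told apart from a difference in the plasmid, its dose or its uptake. The labels of the control libraries read PC3.1 to PC3.3, whereas the study's text describes a PC3.1 plasmid, and the 3 were taken as replicates of 1 control. RNA was extracted in triplicate, and whether each extraction was a separate culture was not established here, so p-values measure the spread between these libraries, which may be technical.

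Library totals lay between 15272450 and 18125447 counts. LINC00996 had 4373 to 5952 counts in its own group and 4 to 9 in the controls, and AP001189.3 had 1660 to 2378 counts in its own group and 0 to 2 in the controls. All 7 epithelial and A549 markers reached 10 CPM, counts scaled to the library total adjusted by edgeR's TMM factor, in every group. Their summed level was 12297 to 12408 CPM in the controls, 16072 to 18491 CPM with LINC00996 and 13394 to 13991 CPM with AP001189.3. The markers did not move together with LINC00996, since the mean of ALDH1A1 was 2933 CPM in the controls and 5836 CPM there, while that of KRT19 was 297 and 225 CPM. The 5 leukocyte markers summed to between 7.83 and 14.3 CPM in all libraries, with 1 of the 5 at 0 in each group. CD14 carried nearly all of this, with means of 10.4 CPM in the controls, 12.4 with LINC00996 and 10.4 with AP001189.3. Each of the others had at most 10 counts in a library. Summed fibroblast and endothelial markers were at 32.8 to 35.2 CPM in the controls, 18.5 to 20.4 CPM with LINC00996 and 27.5 to 29.2 CPM with AP001189.3. COL1A1 was the largest part, with means of 20.9, 13.6 and 19.6 CPM in the same order. The part of these shifts in the results below was not tested. Replicate 1 of the LINC00996 group stood apart from the other libraries of that group. The chi-square of its counts against replicates 2 and 3 was 22.4 and 33.3 per gene, against 3.32 between replicates 2 and 3, and the members' changes are also given without it.

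IFIT and IFITM genes belong to the interferon-stimulated genes, which cells switch on after sensing foreign nucleic acid or an interferon. Secreted interferons bind their receptors and activate ISGF3, a transcription factor complex that includes STAT2 and IRF9, which binds an element called ISRE in target promoters. IFIT genes can also respond directly to IRF3, without secreted interferon. IFIT proteins are cytoplasmic proteins built of tetratricopeptide repeats. IFIT1 binds RNA whose cap lacks the methylation of host mRNA, IFIT2 and IFIT3 assemble with it, and IFIT5 acts alone and binds RNA with a triphosphate end. IFITM proteins are small membrane proteins that hinder the fusion of enveloped viruses, IFITM1 mainly at the cell surface and IFITM2 and IFITM3 mainly in endosomes. Airway epithelium is a site where both families act against respiratory viruses.

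In brief, 6 of the 7 genes were lower in the LINC00996 group than in the controls, where 11.6% of all 16097 genes tested were called lower. In the AP001189.3 group, 5 of the 7 were higher than in the controls, where 11.4% of all 16023 genes tested were called higher. Of these calls, IFITM1 with LINC00996 and IFIT3 with AP001189.3 were each kept in 8 of 14 alternative fits. A joint fit of all 9 libraries called 3 members with AP001189.3. IFIT2 had the widest estimated change of the 7 in either comparison, except that IFITM1 exceeded it with AP001189.3 when control replicate 1 was left out (log2 fold changes of 0.83 and 0.82). It was 3.18-fold lower with the LINC00996 plasmid and 1.77-fold higher with the AP001189.3 plasmid. IFIT5 passed the test in neither comparison. A call here is a Benjamini-Hochberg adjusted p under 0.05 in edgeR's quasi-likelihood test over all genes tested.

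The IFIT genes form a cluster of 137 kb on chromosome 10, and the IFITM genes form one of 19.9 kb on chromosome 11 (GRCh38). On the plus strand, IFIT2 (ENSG00000119922) lies at chr10:89283694-89309276, IFIT3 (ENSG00000119917) at chr10:89327894-89340971, IFIT1 (ENSG00000185745) at chr10:89392546-89406486 and IFIT5 (ENSG00000152778) at chr10:89414586-89421001. IFITM2 (ENSG00000185201) at chr11:307631-315272 and IFITM1 (ENSG00000185885) at chr11:313506-315272 are on the plus strand. IFITM3 (ENSG00000142089) at chr11:319669-327537 is on the minus strand. IFIT1, IFIT2 and IFIT3 lie wholly within the annotated span of LIPA, a lysosomal lipase gene on the other strand, but shared 0, 65 and 0 exon bases with it. IFIT2 shares 356 of its 4101 exon bases with AL353751.1, a non-coding gene on the same strand that had 0 to 4 counts in the 9 libraries. The annotated span of IFITM2 covers IFITM1 entirely, and 351 exon bases, 32.5% of those of IFITM1, are common to both. Of all stretches of 150 bases, the read length, in the annotated transcripts of IFITM1, 20.7% occur in IFITM2 as well, and their counts are therefore uncertain. No such stretch of IFIT1, IFIT3, IFIT5 or IFITM3 occurs in another gene. Of the exon bases of IFITM3, 21.3% are shared with AC136475.5 on the other strand, which had 4 to 12 counts. Of the other annotated genes, AC136475.2 overlaps IFITM2 and AC136475.1, AC136475.4, AC136475.7 and AC136475.8 overlap IFITM3, each with 0 shared exon bases and at most 58 counts in a library. Whether the counting used strand is not given in the sources used here.

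The coding sequences of IFITM2 and IFITM3 were 93.2% identical when aligned, and those of IFITM1 were 66.0% and 67.1% identical to them. Within the IFIT family, IFIT2 and IFIT3 were 67.3% identical and IFIT1 and IFIT5 65.9%, and the other pairs were 57.5% to 59.3% identical. The coding sequences of the IFIT genes hold 478 to 490 codons and those of the IFITM genes 125 to 133.

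RefSeq promoter windows of GRCh38.p14, from 250 bases before to 50 bases after an annotated start, were matched by symbol for 5 of the 7 genes, with a pair of starts for IFIT3. IFIT2 and IFITM2 had no entry. All 6 windows held at least 2 matches to an ISRE core, taken as GAAA, any 2 bases and GAAA again, on either strand (TTTC, any 2 bases and TTTC when reversed), and this motif was found in 3.57% of 35116 promoter windows of the same length. The GAS motif TTCNNNGAA, an element of the response to interferon gamma, matched in the IFITM1 window alone, and it occurred in 7.66% of all windows. The IFITM1 match to GAS overlaps one of its ISRE core matches. Letter matches describe the sequence and do not show binding. The stretches around the ISRE core matches are printed because ISRE is the element through which ISGF3 acts, and they are written along the gene's strand with the matches in capitals. They lie at chr10:89392487-89392549 for IFIT1, at chr10:89327821-89327904 and chr10:89332415-89332507 for the starts of IFIT3 and at chr10:89414503-89414573 for IFIT5, all on the plus strand. The IFITM1 stretch is chr11:313980-314043 on the plus strand and the IFITM3 stretch is chr11:320866-320932 on the minus strand.
IFIT1: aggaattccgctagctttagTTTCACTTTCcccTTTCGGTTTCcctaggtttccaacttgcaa
IFIT3, start 1: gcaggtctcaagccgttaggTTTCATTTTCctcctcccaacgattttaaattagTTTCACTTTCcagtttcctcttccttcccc
IFIT3, start 2: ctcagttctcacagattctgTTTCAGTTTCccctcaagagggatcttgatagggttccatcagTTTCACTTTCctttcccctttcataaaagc
IFIT5: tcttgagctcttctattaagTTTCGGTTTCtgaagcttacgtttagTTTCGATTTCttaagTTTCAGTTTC
IFITM1: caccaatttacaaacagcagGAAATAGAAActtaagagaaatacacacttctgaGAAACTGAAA
IFITM3: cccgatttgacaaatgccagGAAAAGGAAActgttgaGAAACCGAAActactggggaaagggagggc

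Along the gene's strand the matches read TTTC and TTTC in the IFIT windows and GAAA and GAAA in the IFITM1 and IFITM3 windows. IFIT5 held 3 matches and the other windows 2 each. The nearest match to the annotated start began 4 bases before it in IFIT5 and 6 bases before it in IFITM1, where both cross the start. The matches of IFIT1 ended 107 and 94 bases before the start. IFIT5, with the most matches, was also the gene that passed the test in neither comparison with the controls, and nothing about regulation follows from letters alone.

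**Figure D1:**
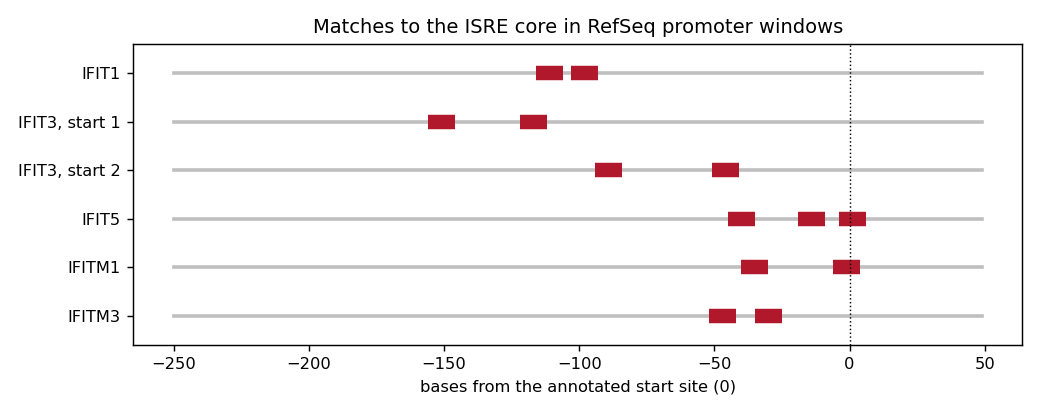
Matches to the ISRE core (red blocks) in the 6 RefSeq promoter windows of 5 of the genes, by distance in bases from the annotated start site at 0 (dotted line). IFIT5 has 3 matches, the other windows have 2 each, and the matches of IFIT5 and IFITM1 nearest the start cross it.

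In the control libraries, which also received a plasmid, all 7 genes were expressed. The series holds no untransfected library, so levels in untransfected A549 were not measured. Levels are given as the deposited FPKM, fragments scaled by gene length and library total. That length covers all annotated exons, 1080, 1543 and 1348 bases for IFITM1, IFITM2 and IFITM3, whose longest transcripts have 855, 892 and 808. For IFIT1 both lengths are 4613 bases. Levels of the IFITM genes may thus be understated against those of the IFIT genes, and the order between genes depends on these lengths. IFIT3 had the highest mean, 386 ± 20.1 FPKM (SD, n = 3), and ranked 67 among 29332 genes with a count in the group. IFIT1 followed at 295 ± 10.9 FPKM, then IFIT2 at 260.4 ± 9.15 FPKM, IFITM1 at 246 ± 55.7 FPKM and IFITM3 at 232 ± 19.7 FPKM. IFITM2 was at 119 ± 7.47 FPKM, and IFIT5 was lowest at 31.5 ± 1.87 FPKM, rank 1212. The ranges of IFIT2 and IFITM1 overlapped, as did those of IFITM1 and IFITM3, and the other neighbours in this order did not overlap. The order differed in the other groups. In the LINC00996 group IFIT1 came first at 187 ± 22.0 FPKM, the ranges of IFIT1, IFITM1, IFIT3 and IFITM3 overlapped from each to the next, and IFIT2 moved to the sixth place at 81.9 ± 14.7 FPKM, with a range that overlapped that of IFITM2. In the AP001189.3 group IFIT2 came first at 461 ± 49.4 FPKM, rank 51 among 29914 genes, and its range overlapped that of IFIT3. IFIT5 was last in every group.

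**Figure D2:**
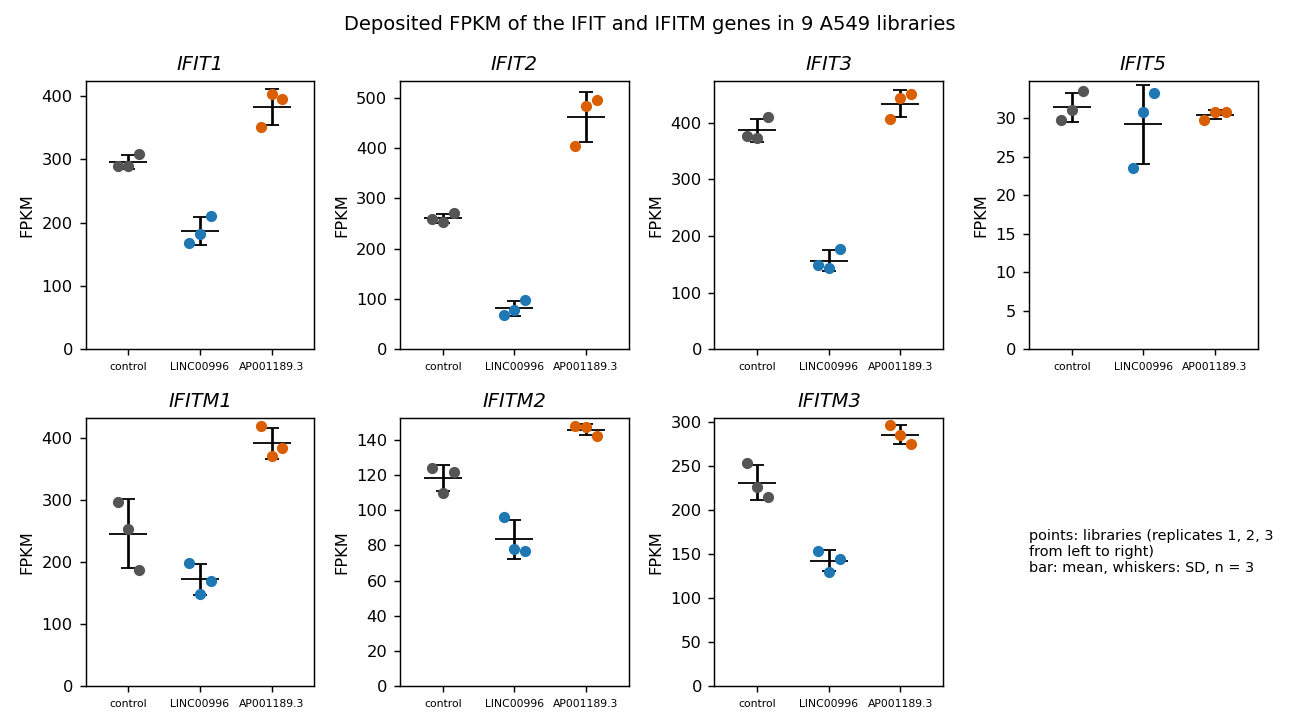
Deposited FPKM (y axis, from 0, with a scale of its own for each gene) of the 7 genes in the 9 libraries, by plasmid group. Points are libraries, bars are means and whiskers are SD (n = 3). For IFIT2 the LINC00996 libraries lie at 68.8 to 97.8 and the AP001189.3 libraries at 405 to 496, either side of the controls at 252 to 270.2, and for IFIT5 the 3 groups overlap.

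IFIT2 was lower with LINC00996 and higher with AP001189.3. Its level was 259, 252 and 270.2 FPKM in control replicates 1, 2 and 3, 68.8, 79.1 and 97.8 FPKM in the LINC00996 libraries and 405, 483 and 496 FPKM in the AP001189.3 libraries. No library of one group reached the range of another. Its log2 fold change was −1.67 ± 0.12 (SE) for LINC00996 against control, with an adjusted p of 3.1e-06 (edgeR's quasi-likelihood test, Benjamini-Hochberg). For AP001189.3 against control it was 0.83 ± 0.06, with an adjusted p of 1.8e-08 in the same test. The counts behind these values were 16739 to 19456 in the controls, 5151 to 7464 with LINC00996 and 28402 to 33798 with AP001189.3. Without LINC00996 replicate 1, its lowest library, the log2 fold change against control was −1.56.

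IFIT3, which stabilises the complex with IFIT1, had 376, 373 and 409 FPKM in the controls and 149, 143 and 178 FPKM in the LINC00996 libraries. In the AP001189.3 libraries it had 406, 443 and 451 FPKM. The LINC00996 libraries were all below the controls, while the lowest AP001189.3 library was below the highest control. IFIT3 was 2.46-fold lower in the LINC00996 group (log2 fold change −1.30 ± 0.10, edgeR adjusted p = 5.2e-06). The rise in the AP001189.3 group was 1.12-fold (log2 fold change 0.17 ± 0.05, edgeR adjusted p = 0.020). This second call was lost in 4 of the 6 fits that left out 1 library: without control replicate 1 (adjusted p = 0.060), control replicate 2 (0.15), AP001189.3 replicate 2 (0.12) and AP001189.3 replicate 3 (0.14). It was lost as well in a fit of all 9 libraries (log2 fold change 0.17, adjusted p = 0.29) and with a gene-length offset (log2 fold change 0.10, adjusted p = 0.16).

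IFIT1, the member that recognises incompletely capped RNA, had 289, 289 and 308 FPKM in the controls, 168, 183 and 211 FPKM in the LINC00996 libraries and 351, 403 and 395 FPKM in the AP001189.3 libraries. The 3 groups did not overlap. IFIT1 was 1.58-fold lower with LINC00996 (log2 fold change −0.66 ± 0.09, edgeR adjusted p = 5.0e-04) and 1.30-fold higher with AP001189.3 (0.38 ± 0.05, edgeR adjusted p = 7.7e-06).

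IFIT5, at the end of the IFIT cluster, was called in neither comparison. It had 29.8, 31.1 and 33.5 FPKM in the controls, 23.5, 30.8 and 33.3 FPKM in the LINC00996 libraries and 29.8, 30.8 and 30.8 FPKM in the AP001189.3 libraries. All 3 groups overlapped, and the lowest value was that of LINC00996 replicate 1. The log2 fold change against control had a 95% interval of −0.37 to 0.16 with LINC00996 (edgeR adjusted p = 0.58) and of −0.16 to 0.07 with AP001189.3 (adjusted p = 0.64). Without LINC00996 replicate 1 the first value was 0.03. With 1750 to 2486 counts per library, the interval of IFIT5 with LINC00996 did not reach the estimates of IFIT1, IFIT2 and IFIT3, and that with AP001189.3 did not reach those of IFIT1, IFIT2 and IFIT3.

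The IFITM genes had smaller log2 fold changes than IFIT2 and IFIT3 with the LINC00996 plasmid, and these differences between genes were not tested. IFITM3, which restricts viruses that enter through endosomes, had 253, 226 and 215 FPKM in the controls, 153, 129.7 and 145 FPKM in the LINC00996 libraries and 297, 286 and 275 FPKM in the AP001189.3 libraries. The 3 groups did not overlap. It was 1.62-fold lower with LINC00996 (log2 fold change −0.70 ± 0.10, edgeR adjusted p = 5.0e-04) and 1.24-fold higher with AP001189.3 (0.31 ± 0.06, edgeR adjusted p = 2.6e-04). With an offset for GC content or for gene length the second log2 fold change was 0.20, and the call was kept (adjusted p = 0.0047 and 0.0076).

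IFITM2, its close paralog, had 124, 110.0 and 122 FPKM in the controls, 96.4, 77.9 and 76.6 FPKM in the LINC00996 libraries and 148, 147 and 142 FPKM in the AP001189.3 libraries. These groups did not overlap either. It was 1.41-fold lower with LINC00996 (log2 fold change −0.50 ± 0.11, edgeR adjusted p = 0.0069) and 1.23-fold higher with AP001189.3 (0.30 ± 0.05, edgeR adjusted p = 2.2e-04). In a fit of all 9 libraries, the AP001189.3 calls of IFITM2 and IFITM3 were lost (adjusted p = 0.093 and 0.065), with log2 fold changes of 0.30 and 0.31.

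IFITM1 was the most variable member among the controls, with 297, 254 and 187 FPKM in replicates 1, 2 and 3, a coefficient of variation of 22.7%. It had 198, 148 and 170.1 FPKM in the LINC00996 libraries and 419, 371 and 384 FPKM in the AP001189.3 libraries. The highest LINC00996 library exceeded the lowest control, while every AP001189.3 library exceeded every control. IFITM1 was called lower with LINC00996 (log2 fold change −0.51 ± 0.16, edgeR adjusted p = 0.034), but of the 6 fits without 1 library this call was kept only without control replicate 3 (adjusted p = 0.012). In the other 5 fits the adjusted p lay between 0.079, without LINC00996 replicate 3, and 0.18, without LINC00996 replicate 1, with 0.17 without control replicate 1 and 0.11 and 0.12 without replicate 2 of the control and LINC00996 groups. With AP001189.3 its log2 fold change of 0.67 was the second largest of the 7, with a 95% interval of 0.15 to 1.20, and it did not pass the test (edgeR adjusted p = 0.092). It did pass without control replicate 3, the lowest control (log2 fold change 0.51, adjusted p = 2.8e-06), and without control replicate 1, the highest (0.83, adjusted p = 0.031). It also passed in DESeq2 (adjusted p = 0.0065) and in a fit of all 9 libraries (adjusted p = 0.024).

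**Figure D3:**
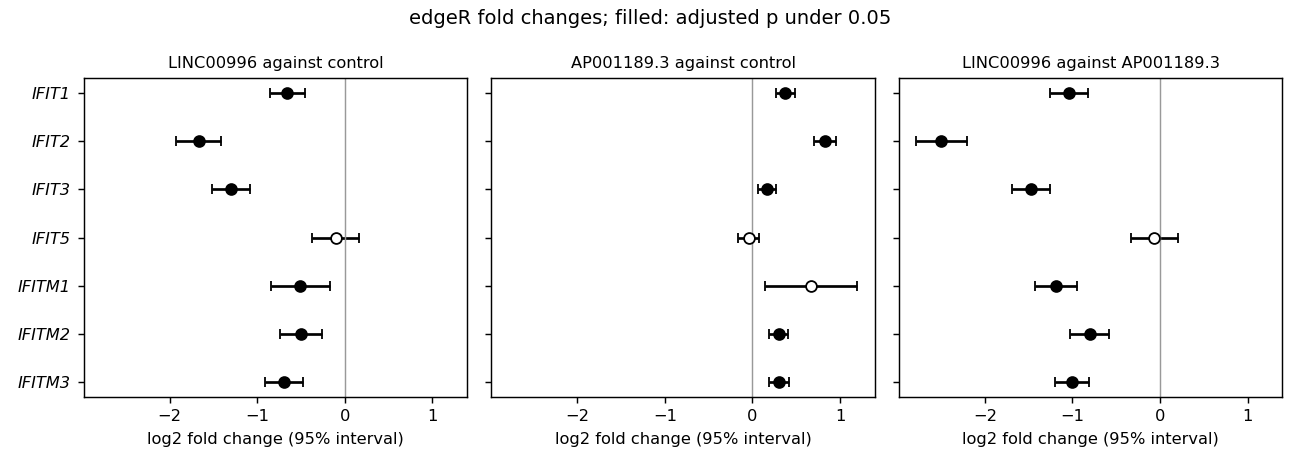
Log2 fold changes (x axis) of the 7 genes from edgeR in the 3 comparisons. Points are estimates, bars are 95% intervals and filled points passed an adjusted p under 0.05. With LINC00996 against control 6 points lie left of 0 and filled, with AP001189.3 against control 5 lie right of 0 and filled, and the points of IFIT5 are open in all 3 panels.

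Counted over the members, 6 of 7 were called lower and 0 higher in the LINC00996 group (11.6% and 10.7% of all genes tested, 22.3% in either direction), and the ranges of 5 of 7 did not overlap with the controls and were lower, against 20.7% of all genes tested. The median log2 fold change of the 7 was −0.66, against 0.01 over all genes tested. Without LINC00996 replicate 1, the values of IFIT1, IFIT3, IFITM2 and IFITM3 were −0.59, −1.27, −0.62 and −0.75. IFITM1 had −0.63 and was not called, and 5 of the 7 were called in that fit, where 33.2% of all genes tested were called in either direction. In the AP001189.3 group, 5 of 7 were called higher and 0 lower (11.4% and 8.49% of all genes tested), and 5 of 7 were higher with no overlap, against 18.6% of all genes tested. The median there was 0.31, against 0.00 over all genes tested. In a fit of all 9 libraries, 3 members were called for AP001189.3, IFIT1, IFIT2 and IFITM1, and that fit called 2.64% of all genes in either direction, against 19.8% when the 6 libraries of the comparison were fitted alone. The 2 comparisons share the control libraries, so they are not independent. In these bulk samples, fewer cells expressing a gene and less RNA per cell cannot be told apart.

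The 2 plasmid groups were also compared directly, without the controls. IFIT1, IFIT2, IFIT3 and all IFITM genes were lower in the LINC00996 group than in the AP001189.3 group, 6 of the 7, where 12.1% of all genes tested were called lower, 9.38% higher and 21.4% in either direction. The ranges of these 6 did not overlap, against 20.1% of all genes tested. IFIT2 was 5.64-fold lower (log2 fold change −2.50 ± 0.13, edgeR adjusted p = 4.7e-07). IFIT3 was 2.77-fold lower, IFITM1 2.28-fold lower, IFIT1 2.05-fold lower, IFITM3 2.01-fold lower and IFITM2 1.74-fold lower, with edgeR adjusted p-values between 2.2e-06 and 2.1e-04. IFITM1 was called here and in each fit that left out 1 library, with log2 fold changes between −1.30 and −1.09. IFIT5 did not pass (log2 fold change −0.06, 95% interval −0.33 to 0.20, edgeR adjusted p = 0.75). Without LINC00996 replicate 1, the 6 calls were kept in a fit that called 41.6% of all genes tested in either direction, and IFIT2 had a log2 fold change of −2.38.

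The make-up of the IFIT family's summed level was described next. The 4 IFIT genes summed to a mean of 973 FPKM in the controls, 455 FPKM in the LINC00996 group and 1308 FPKM in the AP001189.3 group. IFIT2 made up 26.8% ± 0.359 (SD, n = 3) of this sum in the controls, 17.9% ± 1.02 in the LINC00996 group and 35.2% ± 1.11 in the AP001189.3 group. IFIT1 made up 41.2% in the LINC00996 group and 30.4% in the controls, ranges that did not overlap, and IFIT3 had the largest share in the controls, 39.7%. The share of IFIT5 was 3.23% in the controls, 6.41% in the LINC00996 group and 2.34% in the AP001189.3 group.

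A ratio of members within a library does not depend on the depth of that library. The log2 ratio of IFIT2 to IFIT1 was −0.16, −0.20 and −0.19 in the control libraries, −1.29, −1.21 and −1.11 in the LINC00996 libraries and 0.21, 0.26 and 0.33 in the AP001189.3 libraries. These groups did not overlap, so IFIT2 was below IFIT1 in every control and LINC00996 library and above it in every AP001189.3 library. The mean log2 ratio of IFIT3 to IFIT1 was 0.39 in the controls, −0.26 in the LINC00996 group and 0.18 in the AP001189.3 group, and every library of both plasmid groups lay below the controls. IFIT2 to IFIT3 had means of −0.57, −0.94 and 0.09, and IFIT5 to IFIT1 of −3.23, −2.69 and −3.65, in the same order of groups. For each of these 4 ratios the 3 groups did not overlap. The ratios share genes, so they are not separate results, and the share of other gene pairs that separate was not computed.

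The IFITM genes overlapped between groups in 3 of 6 such contrasts. Their sum was 596 FPKM in the controls, 398 FPKM in the LINC00996 group and 823 FPKM in the AP001189.3 group. The mean log2 ratio of IFITM2 to IFITM3 was −0.96 in the controls, −0.78 in the LINC00996 group and −0.97 in the AP001189.3 group, and both plasmid groups overlapped with the controls. IFITM1 to IFITM3 had means of 0.06, 0.26 and 0.45 in the same order, and the LINC00996 group overlapped with the controls. Of 18 exact two-sided permutation tests on the 6 ratios, 15 gave p = 0.1, the smallest that 3 libraries against 3 can give, with an adjusted p of 0.12, so this permutation test cannot pass the threshold for a ratio, and no model-based test of the ratios was run.

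**Figure D4:**
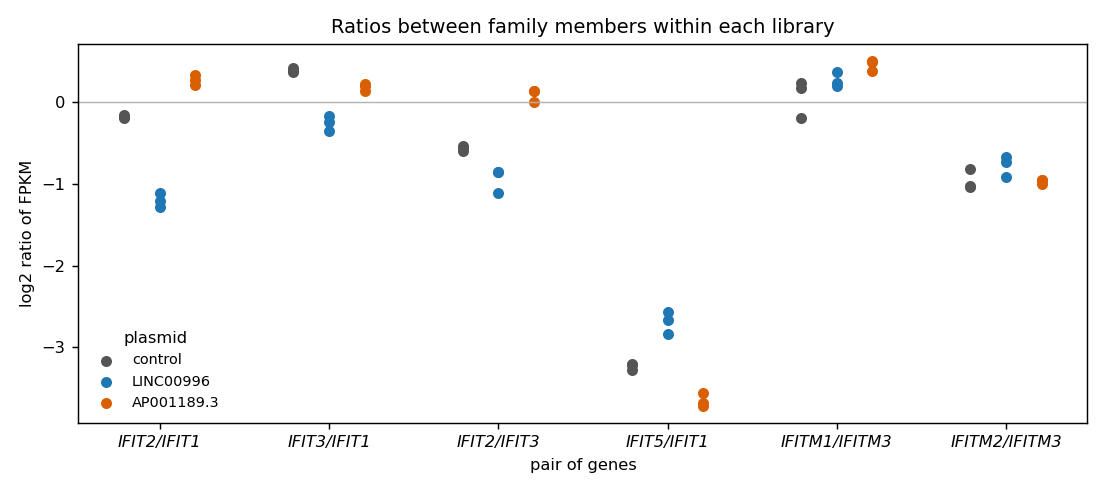
Log2 ratio of FPKM (y axis) between members of a family within each library, for 6 pairs of genes (x axis), with 1 point per library and colours for the plasmid groups. The groups separate in the 4 IFIT pairs, with IFIT2 to IFIT1 near −0.18 in the controls, −1.20 with LINC00996 and 0.26 with AP001189.3, and overlap with the controls in IFITM2 to IFITM3.

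Genes with the most similar profile were sought by the root-mean-square difference (RMS) between log2 CPM profiles over the 9 libraries, each centred on its own mean, among 14629 genes. These are descriptions of 9 libraries that share their groups and scaling. Among the members, IFITM2 and IFITM3 were closest to each other (RMS 0.125), followed by IFIT1 and IFITM3 (0.153), and IFIT2 and IFIT5 were farthest apart (1.01). IFIT1 was nearer to IFITM3 on chromosome 11 than to IFIT3 in its own cluster (0.272).

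Outside the families, the profiles nearest to IFIT2 were those of RSAD2 (RMS 0.115), which encodes the antiviral enzyme viperin, CD274 (0.127), which encodes PD-L1, and GBP4 (0.163). RSAD2 had log2 fold changes of −1.83 with LINC00996 and 0.58 with AP001189.3. Nearest to IFIT1 were MB21D2, CASP4 and TRIM38 (0.0755 to 0.0797), and nearest to IFIT3 were TRIM22, C15orf48 and SERPINB9 (0.0881 to 0.103). IFIT5 has a nearly flat profile, with an RMS of 0.137 around its own mean, so its neighbours UGP2, TGFB2 and ZNF780B (0.0327 to 0.0386) are flat as well. SHOX2, SCX and NFKBIA (0.110 to 0.136) were nearest to IFITM1, AGRN, FOSL2 and CXCL16 (0.0538 to 0.0551) to IFITM2, and GPRC5B, ZMIZ2 and PRKD2 (0.0617 to 0.0675) to IFITM3.

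Other genes of the interferon pathway were listed by their known role. The secreted ligands include IFNB1, a type I interferon, and the lambda interferons. IFNB1 had 18, 7 and 26 counts in the controls, 7, 2 and 10 in the LINC00996 libraries and 39, 42 and 61 in the AP001189.3 libraries. It was too low to be tested with LINC00996 and was higher with AP001189.3 (log2 fold change 1.53, edgeR adjusted p = 0.0020). IFNL1 had 144, 115 and 162 counts in the controls, 54, 22 and 27 in the LINC00996 libraries and 252, 321 and 319 in the AP001189.3 libraries. IFNL1, IFNL2 and IFNL3 were all lower with LINC00996, with log2 fold changes of −2.09, −1.60 and −1.57, and all higher with AP001189.3, with 1.14, 1.41 and 1.33. IFNL2 and IFNL3 are near-identical copies, so the split of reads between them is uncertain. IFNE, with log2 fold changes of −0.01 and −0.20, was called in neither comparison, and IFNK and IFNG had 0 counts in every library. Of the ligands tested, 3 of 4 were called lower with LINC00996, against 11.6% of all genes tested, and 4 of 5 higher with AP001189.3, against 11.4%.

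Of the 6 receptor and ISGF3 genes, 2 were called with each plasmid, where 22.3% (LINC00996) and 19.8% (AP001189.3) of all genes tested were called in either direction. STAT2 was lower with LINC00996 (log2 fold change −0.50, edgeR adjusted p = 0.0011) and higher with AP001189.3 (0.32, edgeR adjusted p = 2.4e-05). The receptor chain IFNAR1 was lower with both plasmids, with log2 fold changes of −0.45 and −0.31, and the second call was lost in a fit of all 9 libraries. The other 4 genes listed passed in neither comparison, IRF9 with log2 fold changes of 0.23 and 0.31, JAK1 with −0.19 and 0.03, TYK2 with −0.05 and 0.15 and IFNAR2 with −0.53 and 0.03. The median log2 fold changes of the list were −0.32 and 0.09.

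Of the genes of RNA sensing and the IRF route, 8 of 11 were lower and 0 higher with LINC00996 (11.6% and 10.7% of all genes tested), with IRF1 at the median. With AP001189.3, 4 of 11 were higher and 0 lower (11.4% and 8.49% of all genes tested), with a median log2 fold change of 0.11. IRF1, a transcription factor that can bind the ISRE, was 2.01-fold lower with LINC00996 (edgeR adjusted p = 2.1e-05) and had a log2 fold change of 0.56 with AP001189.3 (edgeR adjusted p = 2.5e-08). IFIH1, which encodes the RNA sensor MDA5, had a log2 fold change of −1.11 with LINC00996 and did not pass with AP001189.3 (0.10, adjusted p = 0.15). DHX58, a regulator of RNA sensing, had −1.31 and 0.34 and passed in both.

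All 4 feedback inhibitors, themselves interferon-stimulated, were lower with LINC00996 and higher with AP001189.3, against 11.6% and 11.4% of all genes tested. Their log2 fold changes were −0.82 and 0.20 for ISG15, −0.39 and 0.33 for USP18, −0.76 and 0.89 for SOCS1 and −0.43 and 0.65 for SOCS3. ISG15, a ubiquitin-like modifier, had 1068, 1045 and 1204 FPKM in the controls, 802, 531 and 536 FPKM in the LINC00996 libraries and 1254, 1241 and 1309 FPKM in the AP001189.3 libraries. Genes whose products bind or modify the IFIT and IFITM proteins, or methylate the cap that IFIT1 reads, had medians of 0.01 and −0.12. Of these 9, 0 were lower and 1 higher with LINC00996, the lysine methyltransferase SETD7 (0.38, edgeR adjusted p = 0.021), where 11.6% and 10.7% of all genes tested were. With AP001189.3, 3 were lower and 1 higher, against 8.49% and 11.4% of all genes tested. In a fit of all 9 libraries, those 3 lower calls were lost. VAPA, a partner of IFITM3 in lipid transport, had −0.26 with LINC00996 (adjusted p = 0.069) and −0.21 with AP001189.3 (adjusted p = 0.0066), and EIF3E, a subunit of the initiation factor bound by IFIT proteins, had 0.19 (adjusted p = 0.19) and −0.22 (adjusted p = 0.0033).

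**Figure D5:**
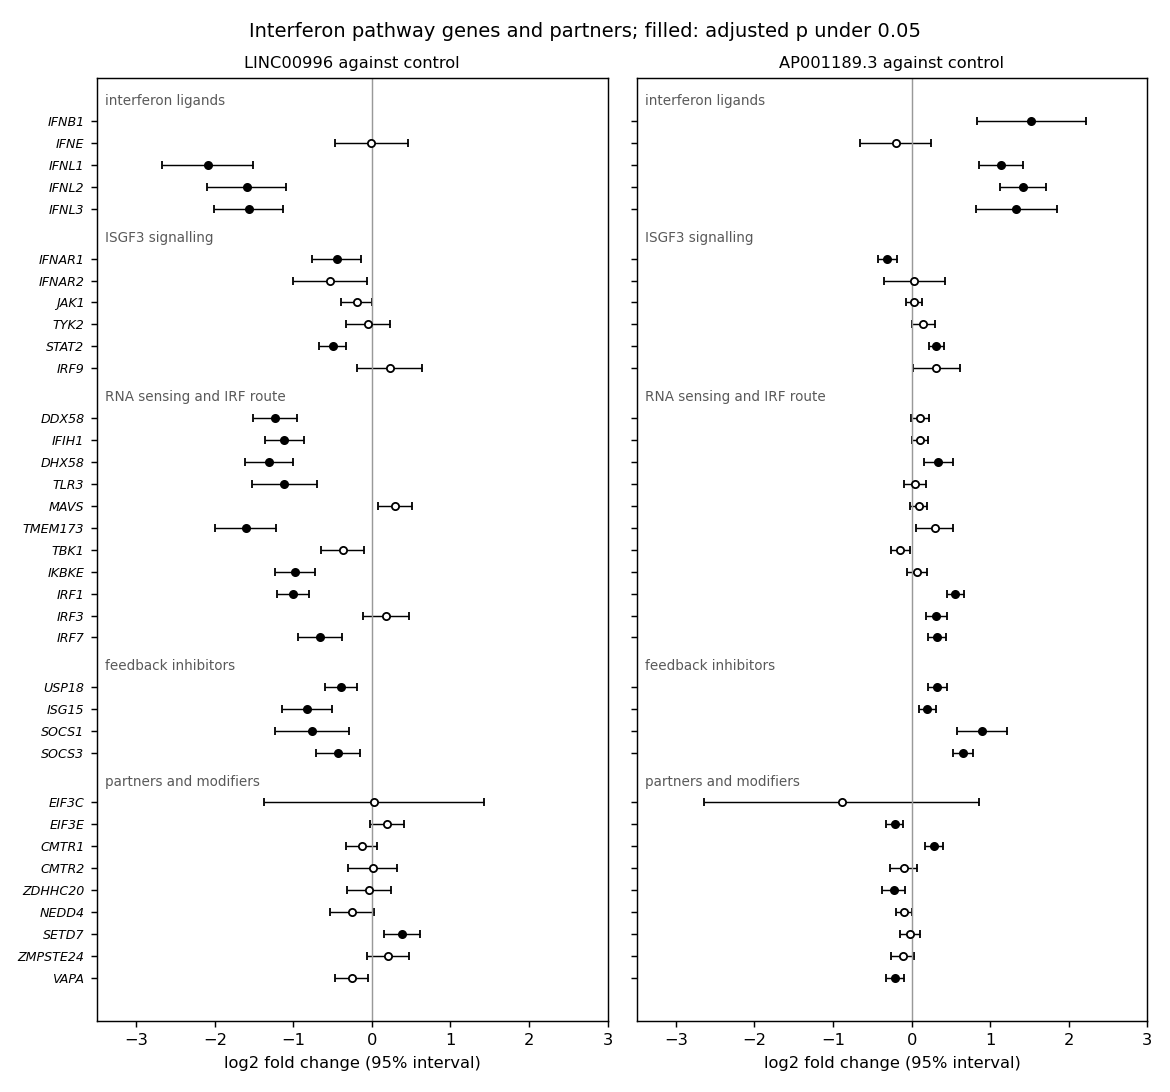
Log2 fold changes (x axis) of the interferon pathway genes and partners that were tested, grouped by role, for LINC00996 and AP001189.3 against control. Points are edgeR estimates, bars 95% intervals and filled points passed an adjusted p under 0.05, with the 3 lambda interferons left of 0 for LINC00996 and right of 0 for AP001189.3.

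Across the 37 genes of these lists, 34 were tested with LINC00996, of which 17 were lower and 1 higher (median log2 fold change −0.41), where 11.6% of all genes tested were lower and 10.7% higher. With AP001189.3, 35 were tested, of which 4 were lower and 14 higher (median log2 fold change 0.11), where 8.49% of all genes tested were lower and 11.4% higher. In a fit of all 9 libraries 0 were called lower and 8 higher with AP001189.3, and with the GC-content offset 1 was lower and 13 higher. These fits called 2.64% and 15.2% of all genes tested in either direction, against 19.8% in the main fit. In the direct comparison of LINC00996 with AP001189.3, 18 of 35 were lower and 3 higher, against 12.1% and 9.38% of all genes tested. The LIPA gene, which spans IFIT1, IFIT2 and IFIT3, had 3443 to 3971 counts in the controls, 2635 to 3230 with LINC00996 and 3123 to 3470 with AP001189.3. Its log2 fold change was −0.43 with LINC00996 (edgeR adjusted p = 0.0082) and −0.09 with AP001189.3 (adjusted p = 0.25).

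Among other genes named as members of the families, IFITM10 had 16 to 43 counts per library and the groups overlapped. It did not pass with LINC00996 (log2 fold change −0.14, edgeR adjusted p = 0.82) or with AP001189.3 (log2 fold change −0.14, edgeR adjusted p = 0.79). IFIT1B had 7, 1 and 4 counts in the controls, 0 in every LINC00996 library and 1, 6 and 2 in the AP001189.3 libraries. IFITM5, which is known from bone, and the pseudogenes IFIT1P1, IFITM4P and IFITM9P had at most 4 counts in a library, and IFIT6P and IFITM8P had 0 in every library. These other genes were below the filter on low counts and were not tested.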

How the data were processed

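RNA-seq of 9 A549 libraries in 3 plasmid groups was used, with groups taken from the sample titles. Per the submitters' processing notes, HISAT2 2.0.5 was the aligner and featureCounts 1.5.0-p3 the counter. The deposited counts are raw and whole, and their gene coordinates are those of GENCODE 29 (GRCh38) for 58735 of 58735 genes. The deposited FPKM give the levels quoted. Each equals the count divided by gene length and by the library's total, up to a factor of 0.961 to 1.02. The depth of 15272450 to 18125447 counts per library limits the precision of low genes.

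Each pair of groups was tested on its 6 libraries with edgeR 4.0.16 in R 4.3.3 (filterByExpr, TMM, robust quasi-likelihood test). The standard error is the absolute log2 fold change over the square root of F. Profiles used log2 CPM with a prior count of 2. The procedure was tested on simulated data. The members, pathway lists and tests were chosen with earlier results of these data known. An item of the pathway lists is not reported here. As alternatives, DESeq2 1.42.0, scaling by library size only, fits without a filter, a minimum of 10 counts per library, a joint fit of all 9 libraries, omission of each library, a replicate block and a gene-length offset were run, and an offset for GC content (loess, span 0.75) was chosen after seeing the data. Genes named in the text are the 7 members, other genes of these family names, the ligand, ISGF3 and feedback genes and some cell type markers. Named as well are the 3 genes of each other list with the smallest adjusted p with LINC00996. The 3 nearest profiles of each member and annotated genes that overlap a member complete the list.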

Additional observations from a re-analysis of the deposited data

How the results depend on the processing

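IFIT1, IFIT2 and IFIT3 with LINC00996, IFIT1 and IFIT2 with AP001189.3 and the 6 calls between the plasmid groups were kept under all 14 alternatives, and so were IFITM2 and IFITM3 with LINC00996. The counts of members called ranged over the fits without 1 library from 5 to 6 with LINC00996 and from 4 to 6 with AP001189.3, and stayed at 6 between the plasmid groups. All 9 libraries in 1 fit left 3 members and 8 pathway genes called with AP001189.3, against 5 and 18, and the GC-content offset left 27 pathway genes called with LINC00996, against 18. With LINC00996 that offset also left IFITM1 without a call (log2 fold change −0.54, against −0.51, adjusted p = 0.090), and it brought IFIT5 past the threshold between the plasmid groups (log2 fold change −0.16, adjusted p = 0.034). IFIT5 ranged over the fits without 1 library from −0.208 to 0.0272 with LINC00996 (positive without LINC00996 replicate 1), from −0.0855 to 0.0030 with AP001189.3 (positive without control replicate 3) and from −0.170 to 0.0727 between the plasmid groups (positive without LINC00996 replicate 1), and its AP001189.3 value turned to 0.0732 with the GC-content offset. The causes were not tested. Genes called with LINC00996 numbered 3588, against 5481 without its replicate 1, 6014 with the GC-content offset and 1925 to 2162 without a control library. With AP001189.3 they numbered 3180, against 437 with all 9 libraries in 1 fit and 1914 and 1974 without AP001189.3 replicate 2 or control replicate 2. Between the plasmid groups they numbered 3452, against 6828 without LINC00996 replicate 1, 5789 with the GC-content offset and 1840 to 2125 without LINC00996 replicate 2 or an AP001189.3 library. Scaling by library size alone raised the lower share of calls with AP001189.3 from 42.8% to 51.7% and reduced it with LINC00996 from 52.0% to 45.4% and between the plasmid groups from 56.3% to 43.9%.

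Same-numbered libraries correlated at −0.02 to 0.15 in their deviations from group means, and different-numbered ones at −0.12 to 0.04. These values do not settle whether the numbers are a pairing, and the main fits used none. With the replicate block, 6 members and 21 pathway genes were called with LINC00996, 6 and 18 with AP001189.3 and 6 and 23 between the plasmid groups, in fits that called 28.0%, 21.6% and 23.4% of all genes tested, against 22.3%, 19.8% and 21.4% without it. Of the member calls, the block changed that of IFITM1 with AP001189.3 (log2 fold change 0.69, adjusted p = 0.033).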
